A study of Mus musculus with 3 samples.

Results

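The nuclear-encoded subunits of the oxidative phosphorylation machinery were examined in the mouse macrophage line J774A.1, which is established and grows in culture, on 3 two-colour arrays. The members were all genes whose name in the scanner files began with Ndufa, Ndufb, Ndufc, Ndufs or Ndufv (complex I), Sdha to Sdhd (complex II), Uqcr (complex III), Cox4 to Cox8 (complex IV) or Atp5 (complex V). This gave 83 of the 27598 genes on the array, read by 116 probes. Of these, 79 were subunits or subunit isoforms. The other 4 shared only the name: Ndufaf1 and Ndufa12l (now Ndufaf2) are complex I assembly factors, Atp5s (now Dmac2l) is not a subunit of the enzyme, and Cox4nb (now Emc8) is the neighbour of Cox4i1.

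The media, each applied for 6 h, were RPMI with serum (RPMI), Earle's salt solution, which supplies glucose but no amino acids or serum (EBSS), and the same solution plus SB202190, which inhibits p38 MAP kinase, at 10 µM (EBSS+SB202190). The series' design sentence could mean that all cells were kept in RPMI; the conditions here are those of the sample source names, in which EBSS replaces RPMI. Each condition was 1 sample, read once in Cy5 and once in Cy3: array 1 paired RPMI with EBSS, array 2 EBSS with EBSS+SB202190, and array 3 EBSS+SB202190 with RPMI. With 1 sample per condition there is no test between conditions, the spread between cultures is unknown, and every error below is technical. The sources used here do not say whether EBSS cells received the inhibitor's solvent.

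Oxidative phosphorylation passes electrons from NADH (through complex I) and succinate (through complex II) by way of ubiquinone, complex III and cytochrome c to complex IV, which reduces oxygen. Complexes I, III and IV pump protons across the inner mitochondrial membrane, and complex V, the ATP synthase, uses that gradient to make ATP. Most subunits are encoded in the nucleus and are abundant housekeeping transcripts, while a few core subunits are encoded by mitochondrial DNA. Macrophages shift between this route and glycolysis as they are activated, and amino acid withdrawal is known to restrain protein synthesis through mTORC1 and the integrated stress response.

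The nuclear-encoded subunits are classic targets of the factors NRF1, GABP (an ETS factor) and YY1. Promoters are therefore shown for 6 of the 7 subunits counted lower at 1.5-fold (defined below) in EBSS against RPMI. RefSeq (GRCm38.p6) gave a window from 250 bases before to 50 bases after the annotated start for 65 of the 79 subunits. The windows below are those of Ndufb10 (chr17:24724374-24724673), Ndufc1 (chr3:51408906-51409205), Ndufa5 (chr6:24527477-24527776), Uqcr, now Uqcr11 (chr10:80406772-80407071), Atp5j2 (chr5:145191492-145191791) and Atp5k (chr5:108434350-108434649), all on the minus strand and written 5′ to 3′ along the gene. Capitals mark matches on either strand to CCGGAAG (ETS), TGCGCA (a half-site of NRF1), the longer NRF1 core (GCGCA and GCGC with any 1 base between them, which can overlap the half-site) or AAGATGG (YY1).
Ndufb10: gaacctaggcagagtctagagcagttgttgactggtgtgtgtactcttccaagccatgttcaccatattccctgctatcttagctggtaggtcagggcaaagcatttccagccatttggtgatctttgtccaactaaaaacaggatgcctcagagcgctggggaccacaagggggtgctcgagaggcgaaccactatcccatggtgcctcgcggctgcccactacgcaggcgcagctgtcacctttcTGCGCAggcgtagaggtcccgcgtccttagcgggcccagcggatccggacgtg
Ndufc1: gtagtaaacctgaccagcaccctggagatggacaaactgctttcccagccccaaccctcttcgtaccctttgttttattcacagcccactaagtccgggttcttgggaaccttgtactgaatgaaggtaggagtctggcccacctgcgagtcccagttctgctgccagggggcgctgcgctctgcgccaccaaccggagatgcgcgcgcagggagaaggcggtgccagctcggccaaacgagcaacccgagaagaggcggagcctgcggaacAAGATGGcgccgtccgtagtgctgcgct
Ndufa5: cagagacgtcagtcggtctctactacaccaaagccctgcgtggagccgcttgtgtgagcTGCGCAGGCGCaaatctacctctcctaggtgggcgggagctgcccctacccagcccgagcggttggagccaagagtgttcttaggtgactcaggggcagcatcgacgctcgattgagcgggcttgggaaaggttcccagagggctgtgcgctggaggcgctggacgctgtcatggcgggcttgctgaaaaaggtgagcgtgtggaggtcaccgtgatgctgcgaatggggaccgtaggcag
Uqcr: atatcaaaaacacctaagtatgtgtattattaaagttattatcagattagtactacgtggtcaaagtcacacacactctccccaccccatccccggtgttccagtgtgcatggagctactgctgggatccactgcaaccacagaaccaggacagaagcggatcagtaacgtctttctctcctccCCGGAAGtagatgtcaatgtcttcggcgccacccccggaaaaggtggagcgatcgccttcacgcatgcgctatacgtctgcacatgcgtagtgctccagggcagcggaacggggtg
Atp5j2: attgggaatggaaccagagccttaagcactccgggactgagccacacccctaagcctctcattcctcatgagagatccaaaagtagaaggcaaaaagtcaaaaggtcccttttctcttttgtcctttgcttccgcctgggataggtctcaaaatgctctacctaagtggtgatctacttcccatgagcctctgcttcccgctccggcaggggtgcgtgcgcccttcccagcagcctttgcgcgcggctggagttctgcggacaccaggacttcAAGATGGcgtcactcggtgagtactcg
Atp5k: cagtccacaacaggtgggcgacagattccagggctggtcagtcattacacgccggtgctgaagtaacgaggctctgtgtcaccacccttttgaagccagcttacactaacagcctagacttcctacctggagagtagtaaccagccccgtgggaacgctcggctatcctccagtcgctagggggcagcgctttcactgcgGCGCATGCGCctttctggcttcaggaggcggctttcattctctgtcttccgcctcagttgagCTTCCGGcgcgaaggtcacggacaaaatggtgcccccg

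CCGGAAG occurred in 15 of the 65 subunit windows (23.1%) and in 11.9% of the windows of 17491 protein-coding genes. TGCGCA occurred in 18 (27.7%, against 10.1%), the NRF1 core in 16 (24.6%, against 6.6%) and AAGATGG in 10 (15.4%, against 6.37%). At least 1 of the 4 was present in 38 subunit windows (58.5%) and in 26.9% of all windows. The window of Ndufa4, the remaining subunit counted lower at 1.5-fold, held none of the 4 and is not printed, so every printed window holds a match. By complex, TGCGCA was in 10 of 31 windows of complex I and AAGATGG in 7 of 31, while CCGGAAG was in 4 of 14 windows of complex V. The NRF1 core was in 7 of 31 windows of complex I (22.6%) and 5 of 14 of complex V (35.7%). TGCGCA was in 3 of 14 windows of complex V (21.4%) and 2 of 3 of complex II. CCGGAAG was in 3 of 13 windows of complex IV (23.1%), 2 of 4 of complex III and 2 of 3 of complex II. Near the share of all windows was CCGGAAG in complex I (4 of 31, 12.9%). In complex IV the NRF1 core and AAGATGG were each in 1 of 13 (7.69%). AAGATGG was in 0 of 3 windows of complex II and 0 of 4 of complex III. TGATGNAA, a spelling of the amino acid response element read by ATF4, was in 0 of the 65 windows and in 3.69% of all windows. CCAAT was in 40.0% of subunit windows and 39.0% of all. These are matches of letters in fixed windows and not measured sites.

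A gene counted as measured if either medium of a comparison had its probe marked well above background in both of that medium's readings. By this rule 76 of the 79 subunits were measured in every comparison, and all 76 were well above background in all 6 channels. The 3 that were not well above background in any channel were the tissue isoforms Cox4i2, Cox8b and Cox8c of complex IV. Measured subunits numbered 35 for complex I, 4 for complex II, 7 for complex III, 15 for complex IV (Ndufa4, a complex IV component despite its name, included) and 15 for complex V. The 13 mitochondrially encoded subunits were not among the gene names of the array and are not analysed here. Subunit probes were bright: their median intensity lay at the 93.2 percentile of measured genes, and 65 of the 76 fell in the brightest quartile of 2967 genes. The array held 9 macrophage markers and all 9 were well above background in all 6 channels, while of 10 markers of other cell types 1 (Hba-a1) was above background throughout and 6 were above it in no channel. Between 39.9% and 49.7% of probes were well above background in a channel, and no spot was saturated.

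After 6 h in EBSS the subunits moved little against one another, and where they lay relative to other genes depended on how the arrays were scaled. With loess normalization, which removes trends with intensity and is used below unless stated, the median log2 ratio of EBSS to RPMI was -0.23 over the 76 subunits and 0.00 over 11867 measured genes, and 66 of the 76 were below 0 (49.6% of all measured genes were). With each array centred on the median of all its spots, with no loess, the medians were 1.07 and 0.81, so that the subunits lay above the median gene. Such centring gave a median of 1.23 for the brightest quartile of genes and 0.24 for the dimmest. Relative to the median gene the subunits therefore differed by -0.23 with loess, by -0.14 with the scanner software's own log ratios and by 0.26 with either form of centring. Relative to the brightest quartile, in which most of them lie, the subunit median was lower by -0.19 to -0.16 under the 7 scalings compared. These are not 7 separate checks. The forms of centring differ by a constant on each array, which cancels in such a difference. The authors' deposited log ratios gave the same medians as the scanner software's. This comparison with the brightest quartile was chosen after the data were seen. In bulk RNA, fewer cells and less RNA per cell cannot be told apart.

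**Figure D1:**
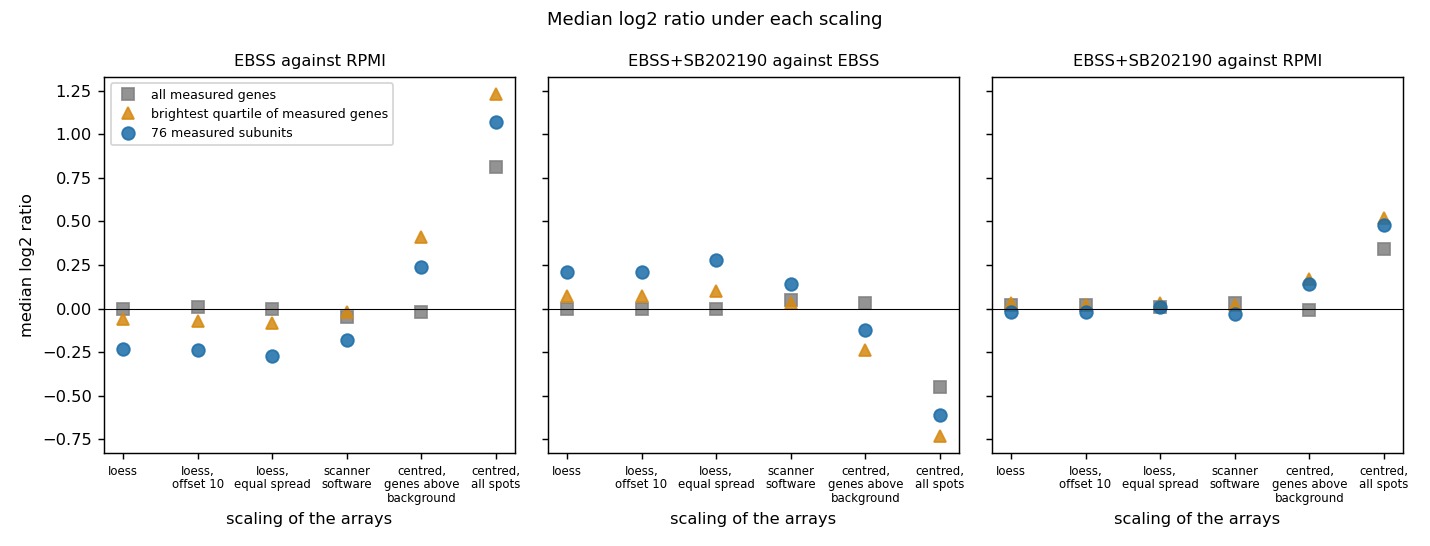
Median log2 ratio (vertical axis) of all measured genes (grey squares), of the brightest quartile of measured genes (orange triangles) and of the 76 measured subunits (blue circles), for 6 scalings of the arrays (horizontal axis) in each comparison. In EBSS against RPMI the subunits lay below all measured genes with loess (-0.23 against 0.00) but above them when arrays were centred on all spots (1.07 against 0.81), and below the brightest quartile under every scaling drawn.

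The subunits were narrowly spread under either scaling. The SD of their log2 ratios in EBSS against RPMI was 0.30, against 0.54 over all measured genes and 0.67 over the brightest quartile, and with centring on all spots it was 0.29 against 0.68. With loess none of the 76 was counted at 2-fold in either direction, where 4.47% of measured genes were counted higher and 2.83% lower. With centring on all spots 19 of the 76 were counted higher, where 35.8% of measured genes were. A gene was counted at 2-fold when its log2 ratio reached 1 in either direction and the ratio also reached 0.5 in that direction both on the array holding the 2 media and on the indirect route by way of the third medium. At 1.5-fold, with the limit on each path lowered in proportion, 1 subunit was counted higher and 7 lower with loess, where the share of all measured genes was 10.7% and 8.92%. With centring on all spots 53 were counted higher at 1.5-fold, where 55.6% of measured genes were. Of the 76 subunits, 65 (85.5%) had a ratio within 1.5-fold, as did 80.1% of all measured genes. The median technical standard error of a subunit ratio was 0.14 (range 0.08 to 0.24), and 23 subunits were lower and 3 higher by more than 2 standard errors, as were 25.9% and 26.3% of all measured genes.

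Complex I, the NADH dehydrogenase, had a median log2 ratio of -0.24 in EBSS against RPMI, with 29 of its 35 subunits below 0 (with centring on all spots the median was 1.05 and no subunit was below 0). The 7 catalytic core subunits measured had a median of -0.12 and the 28 accessory subunits one of -0.25. The lowest was Ndufb10, an accessory subunit of the membrane arm (probe at chr17:24449674-24449733, mm8). Its normalized log2 levels were 15.46 (Cy5) and 15.30 (Cy3) in RPMI, 14.64 and 14.39 in EBSS, and 15.13 and 15.24 in EBSS+SB202190. Both EBSS readings lay below all 4 others. The log2 ratio of EBSS to RPMI was -0.97 ± 0.24 (technical SE), that is -1.07 on the array with both conditions and -0.77 through the other 2 arrays; it was -0.39 when arrays were centred on genes above background and 0.44 when centred on all spots. Under those 3 scalings it ranked 1st, 3rd and 3rd from the lowest of 76 subunits. Here and below, the 2 readings of a medium are the 2 dyes of 1 sample. How many of all measured genes have readings that do not overlap between media is not given here.

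Ndufc1, a small accessory subunit, read 14.14 and 13.93 in RPMI, 13.54 and 13.26 in EBSS, and 13.90 and 13.88 with the inhibitor, in Cy5 and Cy3. Again the EBSS readings were the lowest, and they did not overlap those of either other medium. Its ratio was -0.71 ± 0.14 (0.58 when centred on all spots), and its other probe gave -0.63. Ndufa5, an accessory subunit at the foot of the peripheral arm, read 14.23 and 14.12 in RPMI, 13.39 and 13.47 in EBSS, and 13.76 and 13.54 with the inhibitor, a ratio of -0.67 ± 0.14 in EBSS against RPMI (0.61 when centred on all spots). Its readings with the inhibitor stayed nearer to those in EBSS. Ndufa1, a membrane-arm subunit encoded on the X chromosome, stood at the other end: it read 14.11 and 13.98 in RPMI and 14.39 and 14.36 in EBSS, a ratio of 0.39 ± 0.16 (other probe 0.29), positive under every scaling tried. Probes disagreed by more than 0.5 for Ndufab1 (-0.35, with up to 0.39 from another probe) and Ndufb8 (-0.50, with 0.25), so no direction is given for these.

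Complex II, succinate dehydrogenase, which also serves the citric acid cycle, had a median of -0.10 (1.18 when centred on all spots). Its flavoprotein Sdha read 11.71 and 11.82 in RPMI and 11.83 and 12.00 in EBSS, a ratio of 0.21 ± 0.13. Its iron-sulfur subunit Sdhb read 13.96 and 13.98 in RPMI and 13.69 and 13.62 in EBSS, a ratio of -0.38 ± 0.14 (0.92 when centred on all spots). The membrane anchors Sdhc (-0.14) and Sdhd (-0.06) lay between them.

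Complex III, the cytochrome bc1 complex, had a median of -0.27. By their brightest probes all 7 subunits were below 0 with loess, from -0.71 to -0.04. With the scanner software's ratios 6 of 7 were, and with centring on all spots 0 of 7. A dim second probe of Uqcrq gave 0.24, while second probes of Uqcrc1 (-0.06) and Uqcrh (-0.65) were below 0. The lowest was Uqcr, the small subunit now named Uqcr11, which read 14.43 and 14.37 in RPMI, 13.73 and 13.74 in EBSS, and 14.24 and 14.37 with the inhibitor. Its 2 EBSS readings lay below the other 4, and both paths gave similar ratios (-0.68 and -0.77). Uqcrh, the hinge protein, read 15.57 and 15.37 in RPMI, 14.95 and 14.68 in EBSS, and 15.00 and 14.81 with the inhibitor. For this gene the 4 readings without RPMI lay together, below both RPMI readings. Its ratio in EBSS was -0.67 ± 0.24 (0.73 when centred on all spots), its other probe gave -0.65, but the 2 paths gave -0.89 and -0.23 and it was not counted. The core proteins Uqcrc1 (-0.14) and Uqcrc2 (-0.27) and the Rieske protein Uqcrfs1 (-0.20) were closer to 0.

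Complex IV, cytochrome c oxidase, was the most spread and had a median of -0.15 (1.12 when centred on all spots). It had an SD of 0.39 with the outlying Cox6a2 (0.80) included. Its lowest member was Ndufa4, which read 15.08 and 15.02 in RPMI, 14.35 and 14.25 in EBSS, and 14.53 and 14.72 with the inhibitor. The ratio of EBSS to RPMI was -0.85 ± 0.16, nearly the same by both paths (-0.84 and -0.87), although it was 0.52 when arrays were centred on all spots. Its highest member was Cox6a2, the heart and muscle isoform of subunit VIa, here at low intensity. Cox6a2 read 9.73 and 9.81 in RPMI, 10.74 and 10.68 in EBSS, and 9.31 and 9.73 with the inhibitor. Both EBSS readings were above all 4 others. Its log2 ratio was 0.80 ± 0.11 in EBSS against RPMI, a 1.74-fold difference that was positive under every scaling tried (1.19 with the scanner software's ratios). The ubiquitous isoform Cox6a1 had a ratio of -0.31 ± 0.24 (-0.55 and 0.16 by the 2 paths).

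Cox7a2l, which helps join complexes III and IV into supercomplexes, read 12.57 in both dyes in RPMI, 13.02 and 13.19 in EBSS, and 12.87 and 13.08 with the inhibitor. All 4 readings without RPMI lay above the RPMI readings. Its ratio in EBSS was 0.50 ± 0.13, positive under every scaling tried, against -0.12 for the related Cox7a2 and -0.04 for the muscle isoform Cox7a1. Among the other isoform pairs, Cox4i1 (-0.04), Cox6b1 (-0.05) and the testis isoform Cox6b2 (0.03, among the dimmest at the 7.6 percentile) differed little between EBSS and RPMI, and Cox8a was at -0.22. Cox5a, which with Cox5b forms part of the matrix-facing side of the enzyme, was at -0.57 ± 0.24.

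Complex V, the ATP synthase, had the lowest median of the 5 complexes with loess, -0.30 (1.09 when centred on all spots). By their brightest probes all 15 subunits were below 0 with loess (13 with the scanner software's ratios, 0 with centring on all spots). Dimmer probes above background in all 6 channels gave 0.02 for Atp5a1 and 0.07 and 0.19 for Atp5b. Those of Atp5f1 (-0.01), Atp5g2 (-0.09) and Atp5h (-0.29) were below 0. The F1 head, where ATP is made, and the Fo and stalk subunits, which carry the proton path and hold the head, had medians of -0.30 and -0.31. Atp5j2, subunit f of the Fo part, read 14.53 and 14.41 in RPMI, 13.91 and 13.65 in EBSS, and 14.23 and 14.37 with the inhibitor. Its EBSS readings lay below the other 4, with a ratio of -0.81 ± 0.16 (0.53 when centred on all spots). Atp5k, subunit e, which helps the enzyme dimerize, read 12.33 and 12.30 in RPMI, 11.60 and 11.46 in EBSS, and 12.06 and 11.67 with the inhibitor. Its ratio was -0.69 ± 0.13 (0.42 when centred on all spots). The catalytic Atp5b was at -0.06, and the 3 genes for subunit c, which encode the same mature ring protein, were at -0.28 (Atp5g1), -0.16 (Atp5g2) and -0.60 (Atp5g3), the last resting on 1 path (-0.91 and 0.01).

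**Figure D2:**
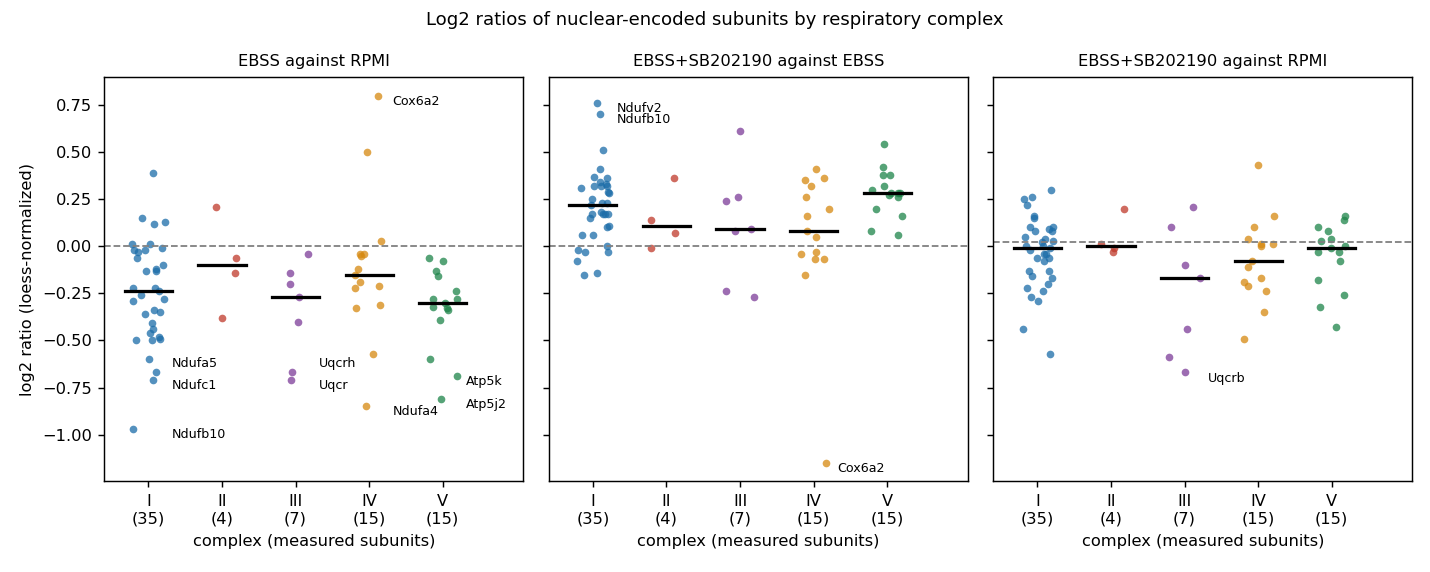
Loess-normalized log2 ratio (vertical axis) of each measured subunit (points) by complex (horizontal axis, number of subunits in parentheses) in the 3 comparisons, with the median of each complex (black bar) and of all measured genes (dashed line). Each subunit is shown by its brightest probe. In EBSS against RPMI all 15 subunits of complex V lay below 0 with this scaling, though none did with arrays centred on all spots. Cox6a2 stood apart in complex IV at 0.80 and, with the inhibitor in EBSS, at -1.15.

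**Figure D3:**
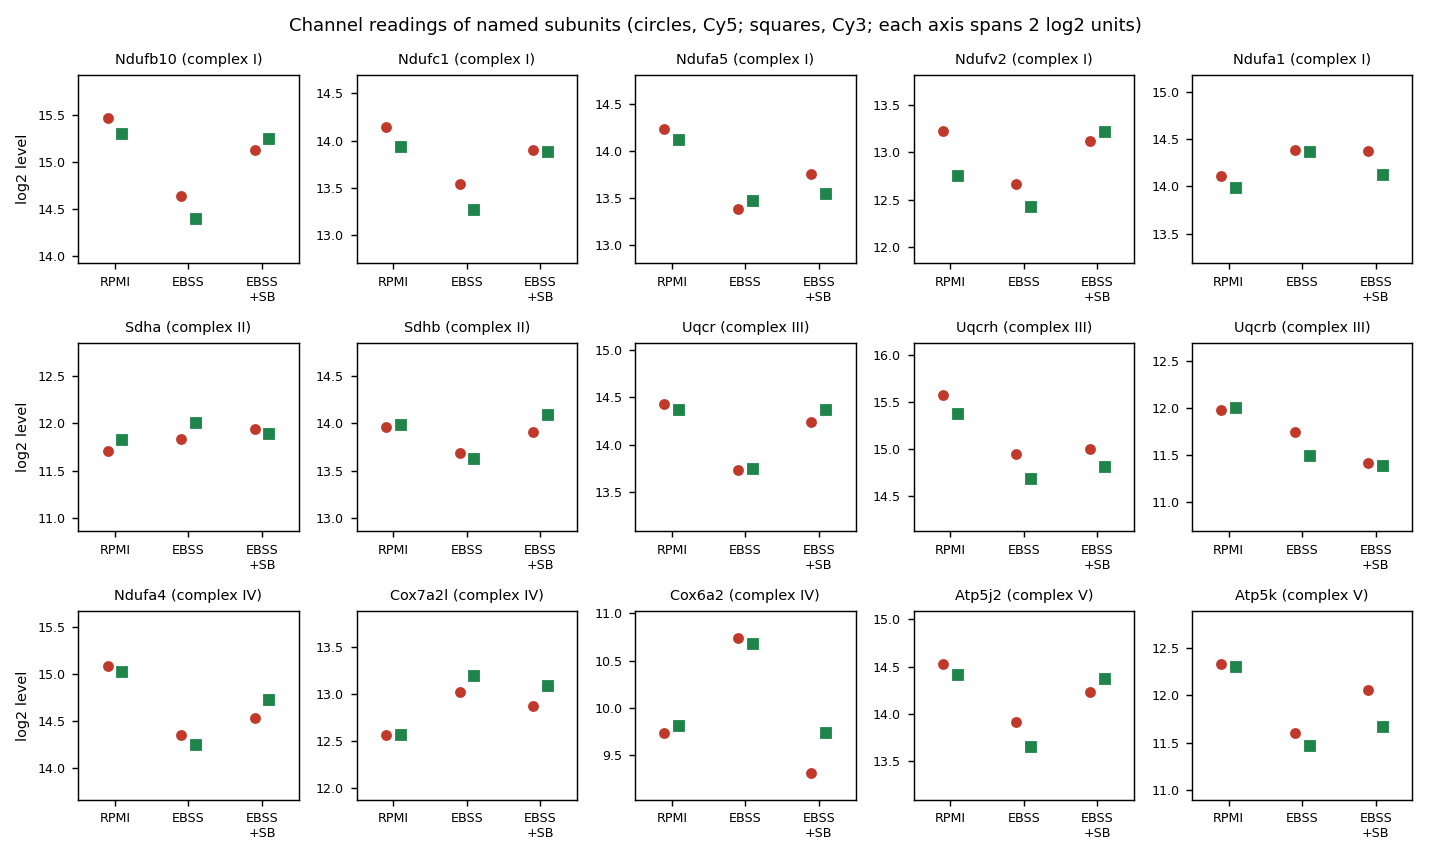
Normalized log2 level (vertical axis, spanning 2 log2 units in each panel) of 15 subunits in the 3 media (horizontal axis), with 1 Cy5 reading (circle) and 1 Cy3 reading (square) per medium. Subunits with both EBSS readings below the other 4 included Ndufb10, Ndufc1, Ndufa5, Ndufv2, Uqcr, Ndufa4, Atp5j2 and Atp5k. Cox6a2 had both EBSS readings above its other 4. The EBSS to RPMI log2 ratios of the named lower subunits turn positive when arrays are centred on all spots.

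The comparison of EBSS+SB202190 with EBSS shows how the subunits stood when SB202190 was added during starvation, with p38 activity itself not measured. It shares the EBSS sample with the comparison above, so a reading that was low or high in EBSS enters both, with opposite sign, and the values are given side by side only. With loess the subunit median was 0.21 (all 11685 measured genes 0.00) and 16 of 76 subunits were below 0, whereas with centring on all spots it was -0.61 against -0.45. Relative to the brightest quartile of genes the subunits differed by 0.11 to 0.18 over the 7 scalings. At 2-fold 1 subunit was counted lower, Cox6a2, and none higher, where 2.91% of measured genes were counted lower and 0.89% higher. At 1.5-fold 3 were counted higher (5.07% of all measured genes) and that same 1 lower (8.84%), and 72 of 76 (94.7%) were within 1.5-fold (85.9% of all measured genes).

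Cox6a2 had a log2 ratio of -1.15 ± 0.11 with the inhibitor against EBSS, a 2.22-fold difference, given as -1.01 and -1.44 by the 2 paths and negative under every scaling tried. Ndufv2, the iron-sulfur partner of the NADH-binding subunit Ndufv1, read 13.23 and 12.75 in RPMI, 12.67 and 12.42 in EBSS, and 13.12 and 13.22 with the inhibitor. Both readings with the inhibitor lay above those in EBSS and between the RPMI readings. Its ratio to EBSS was 0.76 ± 0.13, the highest of the 76. It ranked highest under the other scalings too, with 0.49 when centred on genes above background and 0.00 when centred on all spots, except with equal spread between arrays, where Ndufb10 did. The other subunits counted higher at 1.5-fold were Ndufb10 (0.70 ± 0.24) and Uqcr (0.61 ± 0.16), at -0.16 and -0.19 when centred on all spots.

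By complex, the medians with the inhibitor against EBSS were 0.22 (I), 0.11 (II), 0.09 (III), 0.08 (IV) and 0.28 (V), and -0.58, -0.66, -0.72, -0.64 and -0.57 when centred on all spots. By their brightest probes all 15 subunits of complex V were above 0 with loess, from 0.06 (Atp5j, coupling factor 6 of the stalk) to 0.54 (Atp5j2). With the scanner software's ratios 3 of them were below 0, and with centring on all spots all 15. A dimmer probe of Atp5b gave -0.01, while the other dimmer probes above background in all 6 channels were above 0. Uqcrb (-0.27 ± 0.11) and Uqcrfs1 (-0.24 ± 0.13) of complex III lay on the opposite side.

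Against RPMI, cells in EBSS+SB202190 had a subunit median near 0 with loess. It was -0.02 and that of 11857 measured genes 0.02 (0.48 and 0.34 when centred on all spots), with an SD of 0.21 against 0.44. With loess no subunit was counted at 2-fold, where 1.48% of measured genes were higher and 2.42% lower. At 1.5-fold none was counted higher (5.25% of measured genes) and 2 lower (7.28%), and 74 of 76 (97.4%) lay within 1.5-fold, as did 87.1% of all measured genes. Both counted subunits belong to complex III: Uqcrb at -0.67 ± 0.11 and Uqcrh at -0.59 ± 0.24. Uqcrb read 11.98 and 12.00 in RPMI, 11.74 and 11.49 in EBSS, and 11.42 and 11.38 with the inhibitor. Its readings were thus lowest with the inhibitor and did not overlap between media, and the ratio to RPMI stayed below 0 when centred on all spots (-0.24). Cox7a2l was the highest subunit at 0.43 ± 0.13.

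The 2 measurements of each ratio show how far single subunits can be read. In EBSS against RPMI 48 of 76 subunits were negative on both paths (37.4% of measured genes) and 6 positive on both (39.0%), with loess. With the inhibitor against EBSS 49 were positive on both paths (37.5% of measured genes) and 4 negative (37.6%). Across the 76 subunits the paths correlated with r = 0.499, 0.475 and 0.375 in the 3 comparisons, a description over genes that share the same 3 arrays. For each gene the gap between the paths has the same size in all 3 comparisons, so these are not 3 separate checks. The order of the subunits was less tied to the scaling than their sign: the Spearman correlation across subunits of the loess ratios with those of centring on all spots was 0.75, 0.801 and 0.948, and with the scanner software's ratios 0.927, 0.854 and 0.984.

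**Figure D4:**
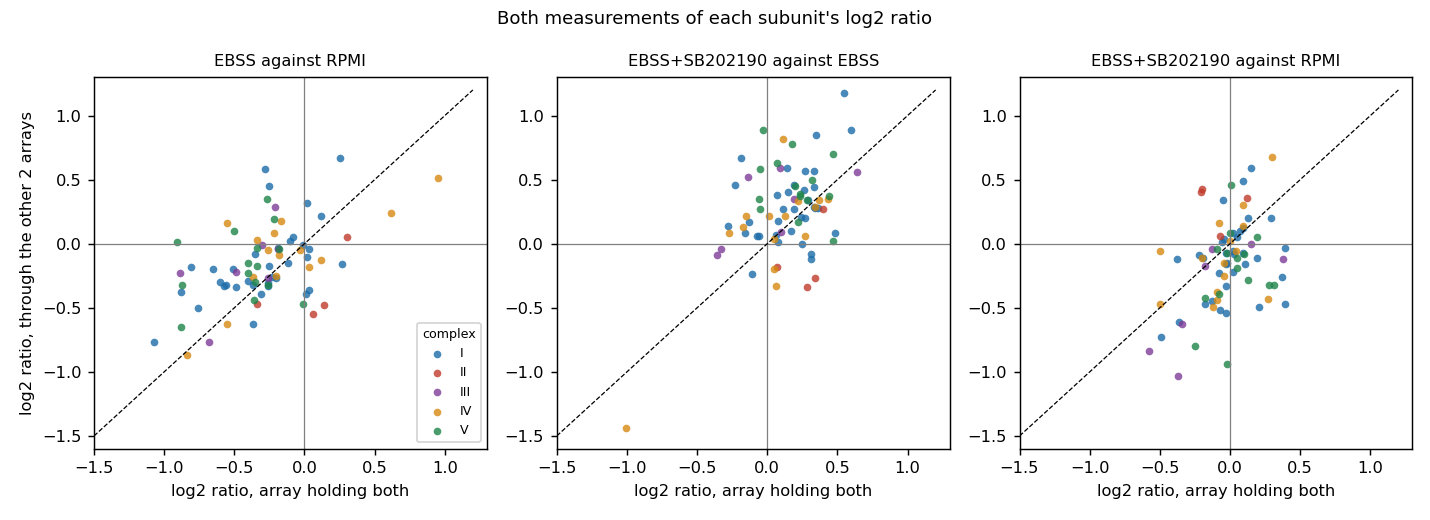
Log2 ratio (loess) of each measured subunit on the array that held both conditions (horizontal axis) against the ratio through the other 2 arrays (vertical axis), coloured by complex; the dashed line marks equality. In EBSS against RPMI 48 of 76 subunits lay in the lower left with this scaling, and in the middle panel 4 subunits lay there, of which Cox6a2 (-1.01 and -1.44) was the farthest from 0.

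Genes that build or feed the chain were taken from lists chosen with earlier results of these data known. Of 15 measured complex I assembly factors, 2 were counted lower at 2-fold in EBSS against RPMI and 5 at 1.5-fold with loess, where 2.83% and 8.92% of measured genes were. Acad9 and Ndufaf7, both needed to assemble complex I, had ratios of -1.08 ± 0.11 each. When centred on all spots their ratios were -0.02 and -0.10, smaller than that error. The list's median was -0.12 with loess against 0.00 for all measured genes, and 0.48 against 0.81 with centring on all spots, so that it lay below the median gene under both. Of 33 measured factors of complexes II to V, 2 were counted lower at 2-fold and 5 at 1.5-fold, against the same shares. Those counted at 2-fold were the cytochrome oxidase factors Coa3 (-1.61 ± 0.13, and -0.34 when centred on all spots) and Coa6 (-1.11 ± 0.11, and -0.16). With the inhibitor against EBSS, Sdhaf1, which helps mature Sdhb, was at 1.23 ± 0.11 and Ndufaf7 at 1.06 ± 0.11. Both were counted higher at 2-fold, where 0.89% of measured genes were, and were above 0 with centring on all spots (0.59 and 0.53). At 1.5-fold Acad9, Ecsit, Coa3, Coa6, Uqcc2 and Uqcc3 were also counted higher, where 5.07% of measured genes were. Coa7 (-0.82 ± 0.11) and Cox11 (-0.67 ± 0.10) were counted lower at 1.5-fold, where 8.84% were. Coa7, another cytochrome oxidase factor, was counted lower at 2-fold with the inhibitor against RPMI (-1.21 ± 0.11), where 2.42% of measured genes were.

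Of 17 measured carriers and enzymes of the ubiquinone pool, Coq10b, which chaperones ubiquinone, was counted higher at 2-fold in EBSS (1.03 ± 0.11), where 4.47% of measured genes were. Pdss1, which makes the ubiquinone side chain, was lowest (-0.99 ± 0.11) and was counted lower at 1.5-fold, where 8.92% of measured genes were. Cytochrome c itself, Cycs, was at -0.36 ± 0.24. None of 22 measured genes of the citric acid cycle and pyruvate dehydrogenase was counted at 2-fold, where 4.47% of measured genes were counted higher and 2.83% lower. The highest were Pdhb (0.96 ± 0.14), the beta subunit of pyruvate dehydrogenase, and Dld (0.73 ± 0.14), the lipoamide dehydrogenase it shares with related enzymes, both above 0 under the 4 scalings compared. Pdhb, Dld and Pdp1 (0.63 ± 0.10) were counted higher at 1.5-fold, where 10.7% of measured genes were.

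Of 17 measured regulators of mitochondrial transcription and biogenesis, Tfb2m, a mitochondrial transcription factor, was counted higher at 2-fold in EBSS (1.17 ± 0.10). Of all measured genes 4.47% were. At 1.5-fold Tfam (0.92 ± 0.13), the main mitochondrial DNA packaging and transcription factor, Gabpa (0.89 ± 0.11), Yy1 (0.85 ± 0.13) and Mterf3 (0.80 ± 0.10) were also counted higher, all above 0 under the 4 scalings compared. Polg2 (-0.87 ± 0.12), the accessory subunit of the mitochondrial DNA polymerase, and Ppargc1b (-0.84 ± 0.10), a coactivator of respiratory genes, were counted lower at 1.5-fold, and Nrf1 was at 0.01 ± 0.11. Of all measured genes 10.7% were counted higher and 8.92% lower at 1.5-fold in EBSS against RPMI. With the inhibitor against EBSS, 4 of the 17 regulators were counted lower at 1.5-fold and 2 higher, where 8.84% and 5.07% of measured genes were. The lower ones were Gabpa (-1.03 ± 0.11, also counted at 2-fold), the coactivator Pprc1 (-0.86 ± 0.13), Tfb2m (-0.84 ± 0.10) and Yy1 (-0.67 ± 0.13), all below 0 under the 4 scalings compared. At 2-fold 2.91% of measured genes were counted lower. The higher ones were Tfb1m (0.84 ± 0.11), which methylates mitochondrial ribosomal RNA, and Polg2 (0.69 ± 0.12), both above 0 under those scalings. The regulators had an SD of 0.61 in EBSS against RPMI, against 0.30 for the subunits.

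Ribosomal proteins, another large set of bright housekeeping transcripts, were set beside the subunits. The 79 measured cytosolic ribosomal proteins had a median of -0.12 in EBSS against RPMI and an SD of 0.17, and with loess none was counted at 2-fold. With centring on all spots 26 were counted higher, where 35.8% of measured genes were, and their median was 1.36, above both the subunits (1.07) and all measured genes (0.81). The 78 measured mitochondrial ribosomal proteins had a median of -0.25 (0.90 when centred on all spots), close to that of the subunits, but an SD of 0.50, and 7 were counted lower at 2-fold with loess, where 2.83% of measured genes were, among them Mrpl41 (-1.83 ± 0.12). Subunits that the name rule missed because the files use older names had ratios in the range of the members: -0.43 for Uqcr10, -0.31 for Ndufv3, -0.43 for Atp5mpl, -0.40 for Atp5md and -0.08 for Cyc1 in EBSS against RPMI. Of the 4 name-sharing genes that are not subunits, Cox4nb was counted lower at 1.5-fold in EBSS (-0.79 ± 0.10, and 0.23 when centred on all spots). Of all measured genes 8.92% were.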

How the data were processed

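Total RNA of each condition was amplified, labelled with Cy5 or Cy3 and hybridised to Agilent mouse arrays, per the labels' protocols. Agilent Feature Extraction 9.5.3.1 is named as the authors' scanner software in the file headers and in the submitters' processing notes. Each deposited file gives mean and background intensity per spot and dye, the log10 ratio of Cy5 over Cy3 of background-subtracted, dye-normalized signals, and marks of other kinds (above background, outlier, control), per the file headers. The authors' deposited series table holds log2 ratios of the same processed signals, uncentred (medians -0.0854, -0.0766 and -0.166).

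Intensities were corrected with normexp (offset 50) and loess in limma 3.58.1 (R 4.3.3), with 1639 control and 136 to 178 outlier spots of 45018 per array left out. Each gene was represented by its brightest probe. A ratio is the least-squares fit to all 3 arrays, and technical standard errors came from the sum around the loop in 30 intensity bins. Levels are per channel after loess and Aquantile normalization. Python 3.11.15, numpy 2.4.6, pandas 2.3.3 and matplotlib 3.10.9 were used. The estimate was tested on simulated data. Named were members counted at either size, the extremes of each complex, isoform families and extremes of each list, with further members as examples. Members and lists were chosen with earlier results of these data known. Probe positions are on mm8, without exon annotation.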

Additional observations from a re-analysis of the deposited data

How the results depend on the processing

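With 11 alternatives and 1 added after the data were seen (centring on genes above background), the subunit median minus that of all measured genes reversed under both forms of centring, to 0.26 in EBSS against RPMI, -0.15 with SB202190 against EBSS and 0.14 with SB202190 against RPMI, and kept its sign under the others except for 0.00 with equal spread between arrays in the last; bright and dim genes have different ratios without loess (1.23 and 0.24). Subunits counted higher in EBSS against RPMI numbered 0, but 19 with centring on all spots and 1 with the scanner software's ratios, with equal spread, with the authors' series table and at 1.5-fold. Those counted lower numbered 0, but 1 with equal spread, 1 on the array with both conditions alone and 7 at 1.5-fold. With SB202190 against EBSS, 1 was counted higher by the other 2 arrays alone and 3 at 1.5-fold. With SB202190 against RPMI, 1 was counted lower by the other 2 arrays alone and 2 at 1.5-fold. Where no value shows it, the cause was not tested. Centring on all spots reversed Atp5j2 (0.53), Atp5k (0.42), Cox4nb (0.23), Ndufa4 (0.52), Ndufa5 (0.61), Ndufb10 (0.44), Ndufc1 (0.58) and Uqcr (0.61) in EBSS against RPMI, and Ndufb10 (-0.16) and Uqcr (-0.19) with SB202190 against EBSS. No paired analysis was possible because each condition was 1 sample. Leaving out an array is the choice of 1 path above.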
